A study of Drosophila melanogaster with 2 samples.

Results

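The chemosensory receptor genes of Drosophila melanogaster were examined for binding of the transcription factor Hand. They were the protein-coding genes whose symbol is Or (odorant receptor), Gr (gustatory receptor) or Ir (ionotropic receptor) followed by a cytological number and a letter. The rule found 179 genes among the 13945 protein-coding genes on the 6 main chromosome arms, 59 of them Or, 60 Gr and 60 Ir. Hand binding was measured by chromatin immunoprecipitation and sequencing of whole embryos, male and female together, aged 6 to 24 hours by the name of the source material (the separate age label gives no usable age). The embryos came from a transgenic line of the strain Hand-GFP that carries Hand with green fluorescent protein at its C-terminal end, and the antibody recognised the fluorescent protein. There was 1 group with 2 biological replicates, labelled 2 and 3, with neither an untreated group nor a control library, so conditions could not be compared. What drives the tagged gene and whether the untagged gene is still present are not stated in the labels. Peak lists measure no expression, so the cell types in the embryos could not be checked against marker levels.

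Insects detect odours, tastes, humidity and temperature largely through these families. An Or protein forms an odour-gated ion channel with the co-receptor Orco, whose symbol falls outside the naming rule. Gr proteins detect bitter compounds and sugars and, in Gr21a with Gr63a, carbon dioxide, while Ir proteins are relatives of synaptic glutamate receptors that work with the co-receptors Ir8a, Ir25a, Ir76b and Ir93a. Most receptor genes are active in few sensory neurons of the larva or adult. Hand belongs to the helix-loop-helix factors and is known from the heart, blood-forming tissue and gut muscle. In a whole-embryo assay, a site bound in few cells and a site bound weakly in many cannot be told apart.

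The files held ranked peaks, each with a position, a summit (its highest point) and a signal, which is the peak caller's own value as the authors deposited it. Signal is not comparable between lists, and the read depth behind it is unknown. Each replicate and the pooled reads had a list of 30000 peaks, most of them weak. The thresholded list came from the authors' reproducibility comparison and held the 3310 strongest pooled peaks. Its signals ran from 92.5 to 2061 with a median of 136, and its pooled signal has no error. A peak in it need not be listed in each replicate. The libraries differed at the tagged gene itself. In the 90 kb around Hand, replicate 2 listed 4 peaks and replicate 3 listed 36, against 16 pooled and 3 thresholded. Counts at receptor genes are therefore also given for each replicate alone, from its own 3310 strongest peaks (its top list).

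Thresholded Hand-GFP summits were scarce at receptor genes, and the few nearby ones mostly sat at the promoters of neighbouring genes. A thresholded summit lay in the gene or within 2 kb of it for 10 of 179 receptor genes (5.59%, 95% Wilson interval 3.06 to 9.98%), against 25.7% of all coding genes. None of the 179 had such a summit inside the gene, where the share over all coding genes was 10.2%. That share depends on gene length, and among other coding genes up to 1500 bp it was 1.38%. None of the 179 had one within 500 bp of its own transcription start site (TSS), where the share over all coding genes was 13.3%. A count of 0 among 179 has a 95% Wilson interval of 0 to 2.10%. The 10 genes were Or85f and Or88a, the gustatory receptors Gr32a, Gr39b, Gr47b, Gr94a and Gr97a, and the ionotropic receptors Ir31a, Ir68b and Ir75a. Or85f had 2 such summits, which makes 11 in all. The families did not separate, at 2 of 59 Or (3.39%, 0.935 to 11.5%), 5 of 60 Gr (8.33%, 3.61 to 18.1%) and 3 of 60 Ir (5.0%, 1.71 to 13.7%), with intervals that overlap. The intervals cover counting error only and treat genes as independent, although neighbours share peaks. The genes were chosen by name, but the family was selected on its thresholded summit counts in these data, so the counts are given as a description, without a test.

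The replicates taken singly gave the same picture. Replicate 2's top list reached 8 receptor genes (4.47%), against 24.5% of all coding genes, and replicate 3's reached 9 (5.03%), against 26.3%. In both lists together 6 genes recurred, a count for which the share over all coding genes was not computed. No top-list summit of either replicate lay inside a receptor gene or within 500 bp of its TSS. The Gr count depended on replicate 3, since replicate 2's top list reached 2 Gr genes (Gr32a and Gr94a) and replicate 3's reached 5. Ir85a was reached by replicate 2's top list without having a thresholded summit, at signal 37.4 and rank 3262 in that replicate. Ir85a is named because its values were seen to differ between the lists.

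The strongest of the 11 peaks lay beside Ir68b, an ionotropic receptor gene (FBgn0036250) on the minus strand of 3L at 12125487-12127394. Its peak at 12125067-12125257 had a pooled signal of 304, rank 370, with 89.6 in replicate 2 and 217 in replicate 3. The summit was 348 bp downstream of Ir68b and 11 bp inside the 5' end of yps, which codes for a Y-box RNA-binding protein. Next came Gr32a (FBgn0041246), a receptor for bitter compounds and male pheromone, at 2L 11114014-11115823. The peak at 11113045-11113480 had signal 276, with 106 in replicate 2 and 171 in replicate 3, and its summit was 751 bp upstream of Gr32a. The start of Idua, which codes for a lysosomal enzyme and points the other way, was nearer, at 202 bp.

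Or85f (FBgn0037685), which in adults serves to detect parasitoid wasp odour together with Or49a, lies at 3R 9398190-9399551. Both of its summits were downstream of the gene. The nearer one, 595 bp away in the peak at 9399928-9400363, had signal 172, with 50.8 in replicate 2 and 116 in replicate 3. It was 93 bp from the start of CG34117, a gene that lies between this summit and Or85f. The farther one, 1821 bp away in the peak at 9401154-9401589, had signal 264, with 68.5 in replicate 2 and 205 in replicate 3. It fell between the divergent starts of CG8132, at 123 bp, and RpL34b, a ribosomal protein gene, at 146 bp. Or88a (FBgn0038203), a receptor for fatty acid methyl esters of flies, lies at 3R 14109445-14110823. Its summit, in the peak at 14108445-14108880, was 782 bp upstream, with signal 112 pooled, 44.1 in replicate 2 and 60.8 in replicate 3. The start of CG12402 was 342 bp from that summit, on its far side from Or88a.

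**Figure D1:**
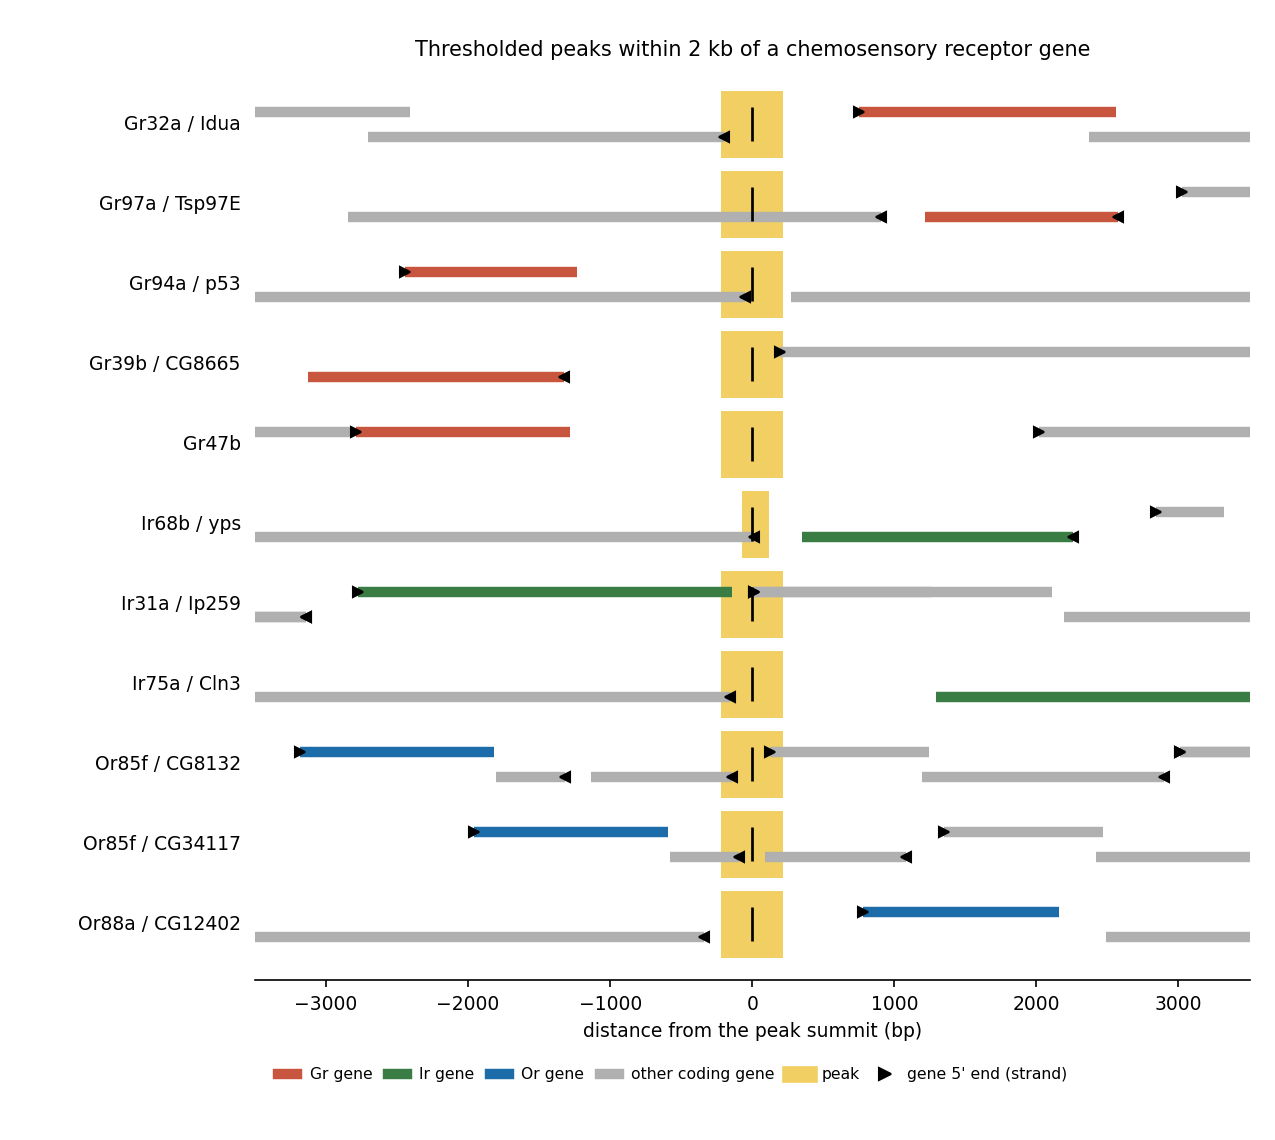
Each row is 1 of the 11 thresholded summits within 2 kb of a receptor gene, with position relative to the summit in bp on the horizontal axis, genes as bars (plus strand above, minus strand below) and the gene named after the slash being the nearest other start within 1 kb. No summit lies in a receptor gene, and 9 of 11 lie within 500 bp of another coding gene's start.

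The 2 other ionotropic receptor genes had weaker peaks. Ir31a (FBgn0051718), an antennal receptor, lies at 2L 10405565-10408197. Its peak at 10408125-10408560 reached 73 bp into the gene's 3' end, but the summit was 146 bp beyond that end and 9 bp from the start shared by Ip259 and RpS27A, a ubiquitin-ribosomal protein fusion. The signal was 108 pooled, 41.0 in replicate 2 and 65.4 in replicate 3. Ir75a (FBgn0036757), a receptor for acetic acid, lies at 3L 17815570-17817921. Its summit, in the peak at 17814059-17814494, was 1293 bp downstream and 158 bp from the start of Cln3, a lysosomal membrane protein gene. The signal was 101.1 pooled, 41.9 in replicate 2 and 49.2 in replicate 3, and the peak was in replicate 2's top list but not in replicate 3's.

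The 3 weaker gustatory receptor genes with a nearby coding gene differed in how that neighbour lay. Gr39b (FBgn0041245), at 2L 21367908-21369706, had a summit 1327 bp upstream and 194 bp from the start of CG8665, in the peak at 21370815-21371250. Its signal was 108 pooled, 23.6 in replicate 2 and 81.5 in replicate 3, and the peak was outside replicate 2's top list. Gr94a (FBgn0041225), at 3R 23051689-23052903, lies within the span of p53, which codes for the stress-response factor p53. Its summit, in the peak at 23053917-23054352, was 1232 bp downstream and 53 bp from a p53 start, with signal 118 pooled, 40.3 in replicate 2 and 78.3 in replicate 3. Gr97a (FBgn0041224), at 3R 26965124-26966485, had a summit 1216 bp downstream that lay inside the tetraspanin gene Tsp97E and 909 bp from that gene's start. That peak, at 26963690-26964125, had signal 127 pooled, 36.4 in replicate 2 and 86.7 in replicate 3.

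The bases around these summits are shown because each lies within 2 kb of a receptor gene and within 500 bp of a neighbour's start, and the words in them can be read beside the peak strengths above. The Ir75a window beside Cln3 meets the same rule and is counted below, but is not printed. Each line is the summit with 50 bp on each side, read from the NCBI Release 6 genome (dm6) on the plus strand. Capitals mark matches, on either strand, of 6 words. CANNTG is the E-box bound by helix-loop-helix factors, and CATCTG is 1 form of it, so that a match of the latter counts for both. TATCGATA is the DNA replication-related element, and AGATAA is a word bound by zinc-finger factors of the GATA family. TAAACA is a word bound by forkhead factors, and GAGAG is one bound by the factor Trl.
Ir68b beside yps, chr3L:12125089-12125189: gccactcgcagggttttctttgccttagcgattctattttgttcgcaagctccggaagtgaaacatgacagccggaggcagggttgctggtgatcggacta
Gr32a beside Idua, chr2L:11113213-11113313: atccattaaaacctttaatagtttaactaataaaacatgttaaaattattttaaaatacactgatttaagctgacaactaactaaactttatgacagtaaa
Or85f beside CG34117, chr3R:9400096-9400196: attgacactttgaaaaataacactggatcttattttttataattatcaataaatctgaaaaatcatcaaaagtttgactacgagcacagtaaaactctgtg
Or85f beside RpL34b and CG8132, chr3R:9401322-9401422: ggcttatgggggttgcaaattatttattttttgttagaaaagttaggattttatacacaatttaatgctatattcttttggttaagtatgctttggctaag
Ir31a beside Ip259 and RpS27A, chr2L:10408293-10408393: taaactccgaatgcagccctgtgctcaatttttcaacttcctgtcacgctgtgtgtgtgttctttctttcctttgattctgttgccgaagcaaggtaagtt
Or88a beside CG12402, chr3R:14108613-14108713: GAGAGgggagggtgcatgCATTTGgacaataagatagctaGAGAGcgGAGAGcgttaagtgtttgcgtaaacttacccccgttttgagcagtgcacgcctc
Gr94a beside p53, chr3R:23054085-23054185: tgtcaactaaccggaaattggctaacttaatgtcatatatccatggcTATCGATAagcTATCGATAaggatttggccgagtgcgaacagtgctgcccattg
Gr39b beside CG8665, chr2L:21370983-21371083: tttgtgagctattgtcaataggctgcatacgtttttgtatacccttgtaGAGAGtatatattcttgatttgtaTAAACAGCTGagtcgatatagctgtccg
The 3 strongest windows beside receptor genes, at Ir68b, Gr32a and the farther Or85f summit, held none of the 6 words. Of the weaker windows, only those at Or88a, Gr94a and Gr39b held any, so lacking them was not particular to strong peaks. CANNTG was found in 2 of the 11 windows, against 34.7% of all 3310 thresholded windows, at Or88a and Gr39b. TATCGATA was found in 1 of 11, the p53 window, which held 2 copies, against 0.997% of all windows. GAGAG was in 2 of 11, with 3 copies at Or88a, against 13.9% of all, and TAAACA in 1 of 11, at Gr39b, against 15.7%. CATCTG and AGATAA were in none of the 11, against 2.66% and 8.16%. The windows at receptor genes ranged from 37.6 to 79.2% A+T, with a median of 57.4%, and the median of all thresholded windows was 66.3%. A match is a description of the letters and no match says nothing about what binds there.

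Gr47b (FBgn0041241), at 2R 11361900-11363405, was the exception among the 10. The summit of its peak at 11364471-11364906 was 1284 bp downstream, and no other coding gene started within 1 kb of it. It was also the weakest of the 11, with pooled signal 98.5 and rank 2951. Replicate 2 listed no summit within 100 bp, and replicate 3 gave 63.8. With Gr97a it makes the 2 of 11 summits that were not within 500 bp of another gene's start.

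In all, 9 of the 11 summits (81.8%, Wilson interval 52.3 to 94.9%) were within 500 bp of another coding gene's TSS. Over the whole thresholded list, 1643 of 3310 summits (49.6%) were within 500 bp of any coding TSS. The sets are unlike, since the 11 lie within 2 kb of a receptor gene and outside it. The 3310 were not chosen by their distance from a gene, so the shares are not directly comparable. The summits were upstream of the receptor gene in 3 cases and downstream in 8. Their pooled signals ran from 98.5 to 304 with a median of 118, below the median of 136 over the thresholded list. A summit within 100 bp was listed for 10 of the 11 in replicate 2 and for 11 in replicate 3, and 8 and 10 of these were in the top lists.

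**Figure D2:**
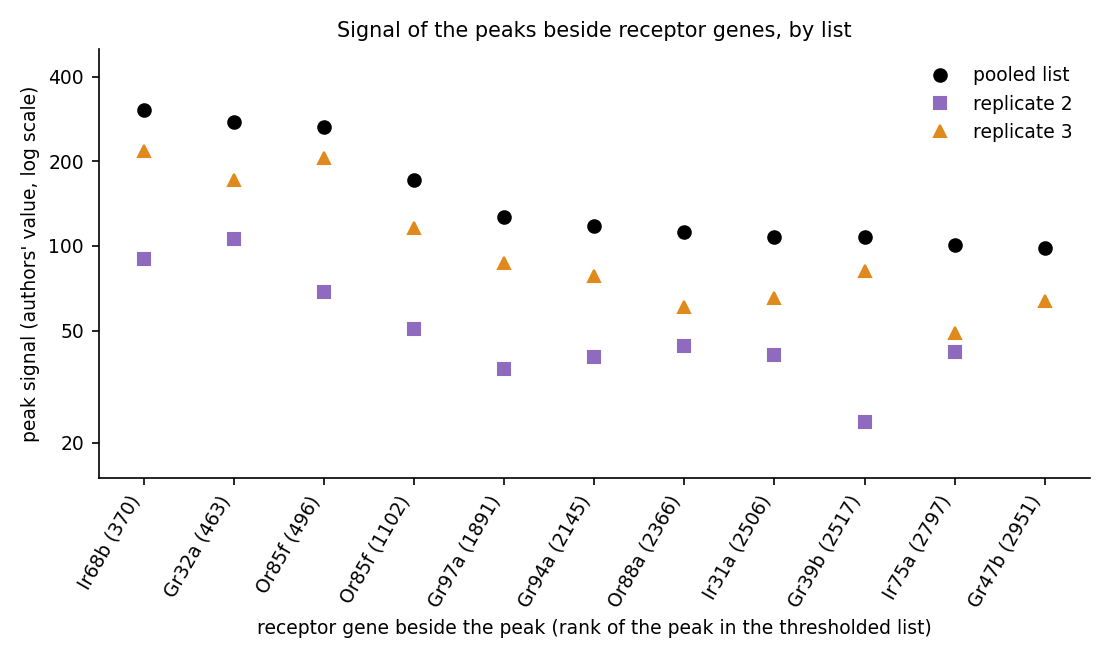
The vertical axis gives the deposited peak signal on a log scale for the 11 thresholded peaks beside receptor genes, ordered by rank along the horizontal axis, with the pooled value as circles, replicate 2 as squares and replicate 3 as triangles. The pooled values fall from 304 at Ir68b to 98.5 at Gr47b, for which replicate 2 listed no summit within 100 bp, and every replicate 2 value lies below the replicate 3 value of the same peak, on scales that differ between lists.

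The boundary at 2 kb separated Or85f, whose farther summit was 1821 bp from the gene, from Ir48c at 2371 bp, Gr63a at 2491 bp, Gr5a at 2535 bp and Ir25a at 2544 bp. The Gr63a and Ir25a summits were again within 500 bp of another gene's start, those of Fie and tank, and the Ir25a one had signal 432. Within 5 kb, 25 receptor genes (14%, 9.64 to 19.8%) had a thresholded summit, against 37.3% of all coding genes, and 66.7% of 30 summits were within 500 bp of another gene's start.

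Receptor genes are short, with a median length of 1691 bp against 2184 bp for other coding genes. Within length classes the receptor genes were still the lower ones for thresholded summits in the gene or within 2 kb. Up to 1500 bp, 4 of 72 receptor genes (5.56%) had one, against 15.1% of other coding genes. From 1500 to 2500 bp the shares were 5 of 78 (6.41%) and 21.9%, and from 2500 to 5000 bp they were 1 of 24 (4.17%) and 26.5%. None of the 5 receptor genes over 5000 bp had one, against 43.5%. The share of other coding genes with a thresholded summit within 500 bp of a TSS rose from 6.49% in the shortest class to 23.3% in the longest, while no receptor gene of any class had one. Inside the gene, the shares of other coding genes from the shortest class to the longest were 1.38, 3.84, 7.91 and 29.9%. No receptor gene of any class had one there.

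**Figure D3:**
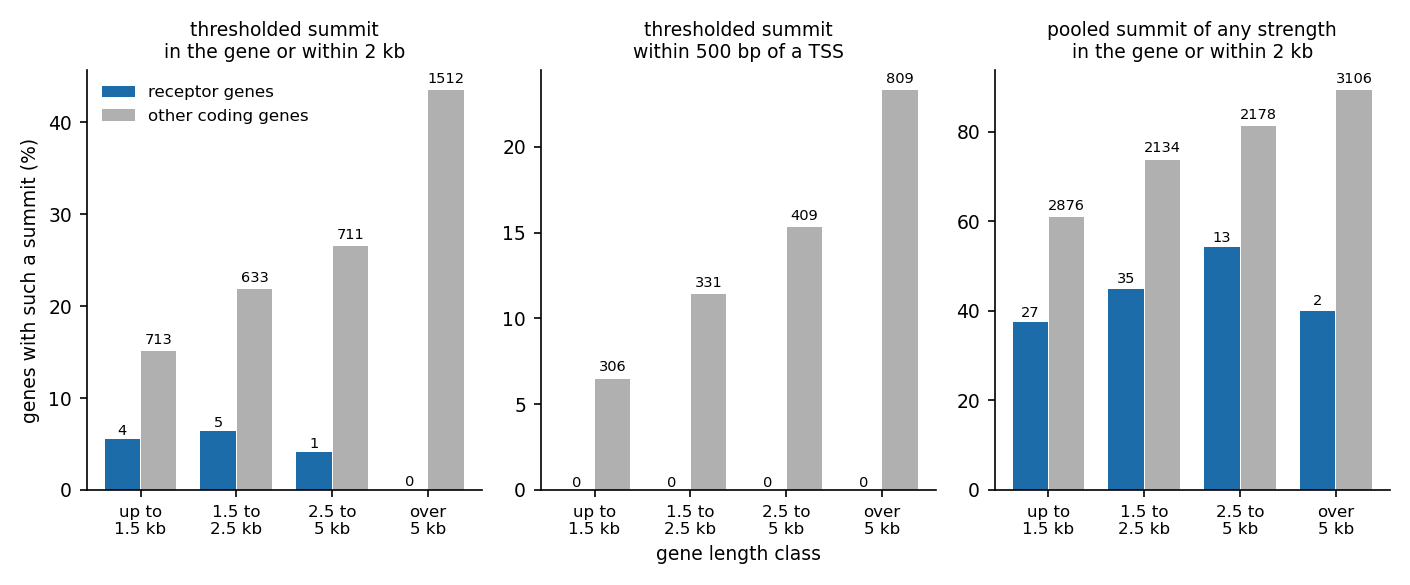
Bars give the share of genes in percent with the summit named above each panel, by gene length class, for receptor genes and other coding genes, and the figure over each bar is the number of genes with such a summit. Receptor genes lie below other coding genes in every class of every panel.

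The starts of receptor genes lay far from thresholded summits. The median distance from a TSS to the nearest one was 24850 bp for receptor genes, with quartiles of 11350 and 45554 bp, and 11036 bp for other coding genes, with quartiles of 3167 and 28597 bp. Or genes were the farthest, with a median of 30522 bp, followed by Ir genes at 23900 bp and Gr genes at 18874 bp, and these families overlap widely in their quartiles. The nearest receptor TSS was that of Gr32a, at 751 bp. The farthest was that of Ir41a, at 1135414 bp, followed among the long genes by Ir40a at 330736 bp. Ir40a, a humidity receptor gene, and Ir41a had no summit in any list, and at 24851 and 104437 bp they are the longest of the 179. They are named because these values were seen.

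**Figure D4:**
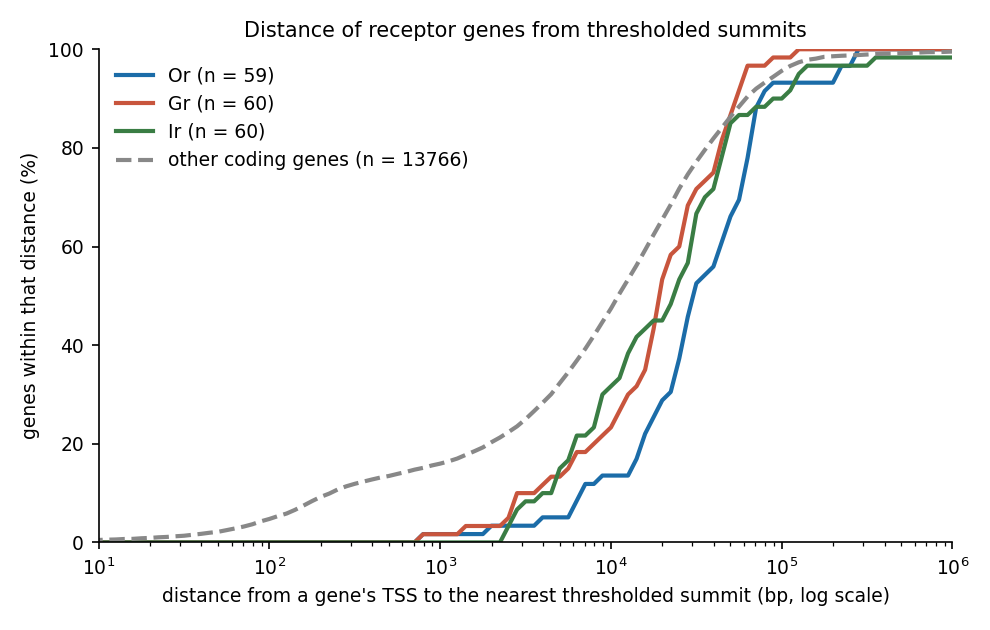
Curves give the share of genes in percent whose TSS lies within the distance on the horizontal axis (bp, log scale) of a thresholded summit, for Or, Gr and Ir genes and for other coding genes. Other coding genes include a share with a summit close to the TSS, whereas the curves leave 0 at 751 bp for Gr, 782 bp for Or and 2255 bp for Ir genes, and the medians are 30522, 18874 and 23900 bp for Or, Gr and Ir genes and 11036 bp for the others.

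The genes beside the receptors were nearer to the rest of the genome. Of the 247 coding genes that flank a receptor gene and are no receptors themselves, 19.8% had a thresholded summit within 2 kb and 28 (11.3%) had one within 500 bp of a TSS, against 26.0% and 13.5% of the remaining coding genes. The territory of the 179 genes with 2 kb on each side measured 1.01 Mb and held 11 thresholded summits, or 10.9 per Mb (95% Poisson interval 5.42 to 19.4). The 6 arms held 24.7 per Mb. Without the long genes Ir40a and Ir41a the receptor territory held 12.6 per Mb.

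Weaker pooled peaks were sparse around receptor genes too. A pooled summit of any strength lay in the gene or within 2 kb for 77 of 179 receptor genes (43.0%, 36.0 to 50.3%), against 74.4% of all coding genes. Inside the gene the count was 20 (11.2%), against 43.0% of all coding genes, and within 500 bp of the gene's own TSS it was 15 (8.38%), against 48.9%. By family, 25 Or, 29 Gr and 23 Ir genes had a pooled summit within 2 kb. The 108 pooled summits in the territory amounted to 107 per Mb, against 224 per Mb over the arms, a ratio of 0.476. The single lists gave ratios of 0.590 in replicate 2 and 0.507 in replicate 3. Inside receptor genes the ratio was 0.191 in the pooled list and in replicate 3, and 0.440 in replicate 2, which listed 46 summits there against 20 in each of the others. These ratios include the long genes Ir40a and Ir41a, which had no summit in any list. Without them the pooled density was 123 per Mb in the territory, and 59.3 per Mb inside the genes, against 42.9 with them. In length classes, from the shortest to the longest, pooled summits within 2 kb were found for 37.5, 44.9, 54.2 and 40.0% of receptor genes and for 61.0, 73.8, 81.3 and 89.3% of other coding genes.

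Of the 108 summits, 97 fell below the thresholded list. Their median signal was 29.9, against 35.1 over all pooled peaks below that list, and the 20 inside receptor genes had a median of 26.9 and a maximum of 53.6. The 24 of the 97 that were within 500 bp of another coding gene's start had a median of 38.4, and the other 73 had 29.1. How many of all weaker pooled summits lie so near a coding start was not computed. The territory held 0.332% of the thresholded peaks, 0.299% of ranks 3311 to 10000, 0.250% of ranks 10001 to 20000 and 0.520% of ranks 20001 to 30000, while it makes up 0.757% of the arms. With Ir40a and Ir41a included, it stayed below its share of the arms in all 4 strength classes. No summit in any of the lists was found for 68 of the 179 receptor genes. The same share over all coding genes was not computed, so this count is a description only.

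Of the 15 receptor genes with a weak peak at their own start, Gr21a had the strongest. Gr21a (FBgn0041250), the carbon dioxide receptor gene at 2L 780482-782885, had an exonic summit 240 bp from its TSS with signal 53.6 and rank 8611, and 20.4 in replicate 2 and 31.4 in replicate 3. Gr77a had a summit 141 bp upstream of its start with signal 49.5, and 15.2 and 32.9 in the replicates. Ir93a, a co-receptor for humidity and temperature sensing, had one 19 bp from its start with signal 27.1, listed at 16.3 in replicate 2 and with no replicate 3 summit within 100 bp. At the start of Or10a, a receptor for methyl salicylate, and of the overlapping Gr10a, 1 shared peak had signal 31.1 and no summit of either replicate within 100 bp. For 5 of the 15, these 2 included, another coding gene also started within 500 bp of the summit. For Or10a and Gr10a that other gene is the overlapping receptor gene itself. For Ir60e, Ir60b and Gr97a it is no receptor gene, namely CG13585, Letm1 and CG5521. Gr21a and Gr77a are the strongest of the 15 with no other start so near, and their windows, with the same capitals, were as follows.
Gr21a, chr2L:780986-781086: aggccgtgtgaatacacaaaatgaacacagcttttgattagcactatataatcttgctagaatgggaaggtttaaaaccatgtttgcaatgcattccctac
Gr77a, chr3L:20739521-20739621: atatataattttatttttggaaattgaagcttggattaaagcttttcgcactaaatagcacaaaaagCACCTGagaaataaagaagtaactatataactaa
The Gr21a window held none of the 6 words and the Gr77a window held 1 CANNTG match.

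Among receptor genes without a thresholded summit, some of the strongest pooled peaks lay at neighbours. Or9a had a peak of signal 85.1 (25.8 in replicate 2 and 50.7 in replicate 3) whose summit was 69 bp from the start of Neb-cGP. Gr64a, a sugar receptor gene, had one of 77.6 (27.8 and 48.0) that was 5 bp from the start of CG11594. Gr22d had one of 73.5 (31.1 and 34.6) with no other start within 500 bp. Ir60b, a receptor that limits sucrose intake, had one of 71.1 at 20 bp from the start of the mitochondrial gene Letm1, listed at 33.5 in replicate 2 and with no replicate 3 summit within 100 bp. Ir93a had one of 63.7 (18.3 and 43.2) at 5 bp from the start of RpS30, a ribosomal protein gene. The other 5 of the 10 strongest were Or45b at 64.3, Or67c at 63.2, Ir94c at 62.8, Ir85a at 62.2 and Ir25a at 61.3, none within 500 bp of another start. So 4 of these 10 genes had their peak at a neighbour's start. The share over all pooled peaks of like strength was not computed, so this count is a description only.

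The Ir co-receptors and the carbon dioxide and sugar receptor genes are described singly, and Orco is given with the co-factors below. None had a thresholded summit within 2 kb, although Ir25a had the one of signal 432 at 2544 bp. Among the Ir co-receptors, Ir76b had no pooled summit in the gene or within 2 kb, Ir8a had one of signal 26.7 at 144 bp from the start of CG12121, and Ir25a and Ir93a had those given above. Gr63a, the partner of Gr21a in carbon dioxide sensing, had a strongest pooled peak of 42.3 (13.5 in replicate 2 and 26.2 in replicate 3). Of the sugar receptor genes, Gr43a (fructose), Gr64b and Gr64c had no pooled summit. Gr5a (trehalose) had one of 52.2 at 71 bp from the start of Tre1, a gene for a G protein-coupled receptor of migrating germ cells, and Gr61a had one of 50.1. Gr64d, Gr64e and Gr64f shared a single summit of 24.7 with no summit of either replicate within 100 bp.

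Many receptor genes stand in clusters, here runs of genes at most 10 kb apart. There were 28 clusters with 82 members, and 97 genes stood alone. A thresholded summit within 2 kb was found for 9 of 97 single genes (9.28%) and for 1 of 82 clustered genes (1.22%), Ir75a, whose summit lies outside the run Ir75a to Ir75c. These shares are not directly comparable. The flanks of clustered genes overlap and partly cover other receptor genes, and no receptor gene held a thresholded summit. No thresholded summit fell inside the span of any of the 28 clusters. Pooled summits within 2 kb were found for 46.4% of single and 39.0% of clustered genes. Pooled summits inside the span were present in 10 clusters and absent from 18. How often spans of like length elsewhere hold a summit was not computed, so the counts inside clusters are descriptions only. The sugar receptor cluster Gr64a to Gr64f (6 genes, 10807 bp) held 1, the cluster Ir7b to Ir7g (6 genes, 22029 bp) held 1, and Gr22a to Gr22e (5 genes, 10856 bp) held 1. The cluster Gr93a to Gr93d (4 genes, 14157 bp) held 5, all between its genes and none inside one, and Ir52a to Ir52d (4 genes, 8735 bp) held 0. Of the 30 receptor genes that lie inside another coding gene, 1 had a thresholded summit within 2 kb (3.33%), against 6.04% of the 149 others.

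Receptor promoters (250 bp before to 50 bp after the TSS, dm6) were read for the same words and for TATAAA. Their median A+T content was 60.7%, against 62.0% for other coding genes. TATCGATA was found, on either strand, in 1 of 179 receptor promoters (0.559%), against 9.47% of other promoters and 12.4% of promoters with a thresholded summit within 500 bp. TATAAA, the TATA-type word, was in 54.2% of receptor promoters and 45.7% of others, with 78.0% of Or, 30.0% of Gr and 55.0% of Ir promoters. CANNTG was in 83.2% and 77.2%, CATCTG in 12.8% and 11.3%, and AGATAA in 17.3% and 18.7%. TAAACA was in 25.1% and 32.6%, and GAGAG in 20.1% and 29.8%. These shares are descriptions, and their relation to Hand-GFP peaks was not tested.

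Other genes of the chemosensory system are given beside the 25.7% of all coding genes with a thresholded summit in the gene or within 2 kb. Among odorant-binding protein genes, which code for small secreted carriers, 4 of 52 (7.69%) had a thresholded summit in the gene or within 2 kb, none inside the gene or within 500 bp of the TSS. The strongest were at Obp84a (signal 293, 99 bp from the start of CG1227), Obp28a (154, 51 bp from the start of Ziz) and Obp56f (113). Of the CheA and CheB genes, which code for secreted proteins of taste organs, 1 of 20 (5.0%) had one. This was CheB42c, with an annotated span of 27024 bp, which had 2 inside the gene, one in an intron with signal 151 and one with signal 131 that was 25 bp from its own start and from that of mim. Of the channels of the ppk and TRP families 2 of 10 (20%) had one, nan (128, 15 bp from the start of nuf) and ppk19 (105, 100 bp from the start of Bub3). Of the regulators of receptor neurons 2 of 10 (20%) had one. Xbp1 had 2, with signal 357 at 203 bp from the start of Hmg-2 and with signal 191 at 7 bp from its own start, and pdm3 had 1 of 115 in an intron. Among synaptic glutamate receptor genes, the relatives of the Ir family, 2 of 13 (15.4%) had one, Nmdar2 (232, 3 bp from the start of sta) and Nmdar1 (125). None of 70 cuticle protein genes of the Cpr family had one, and 35.7% of these had a pooled summit of any strength within 2 kb, against 74.4% of all coding genes. The shares of 20% are near the 25.7% of all coding genes. The Cpr genes, with a median length of 1094 bp, were added for comparison as another large family of short genes.

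Of the receptor neuron co-factors, 3 of 5 had a thresholded summit in the gene or within 2 kb, against 25.7% of all coding genes, and none had one within 500 bp of its start. Amt, the ammonium transporter gene, had a summit 1563 bp upstream with signal 308 (122 in replicate 2 and 186 in replicate 3). ATP8B, a flippase gene needed by odorant receptor neurons, had an intronic one of signal 223 (80.9 and 144). Orco (FBgn0037324), at 3R 5407183-5412406 on the minus strand, had a summit 719 bp upstream of its start in the peak at 5412907-5413342, with signal 162, rank 1243 and 85.2 in replicate 3. Replicate 2's nearest summit was 105 bp away with signal 79.1 and rank 709. Snmp1 and Snmp2 had no thresholded summit. The Orco window is shown because Orco is the shared partner of the Or proteins, and no other coding gene started within 500 bp of its summit.
Orco, chr3R:5413075-5413175: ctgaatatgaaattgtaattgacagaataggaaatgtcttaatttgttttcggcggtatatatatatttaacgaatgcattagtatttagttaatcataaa
It was 75.2% A+T and held none of the 6 words. With 5 genes in the list, 3 of 5 is a description of these genes only.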

How the data were processed

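Hand-GFP immunoprecipitates from 2 biological replicates of 1 group were analysed from deposited peak lists on dm6. The signal of each peak is the peak caller's value as the authors deposited it, and the deposited q-value, given as −log10, was not used to rank. The aligner, caller and IDR settings, with the depth, were not given in the sources used here. Lists on dm3 were not used here.

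Summits were assigned to Ensembl release 115 protein-coding genes on 6 arms when in the gene or within 2 kb. Replicate summits matched within 100 bp. Shares have 95% Wilson intervals. Word matches used windows of 50 bp on each side of the summit. Assignment was tested on simulated data. Analyses used Python 3.11.15, numpy 2.4.6, pandas 2.3.3, scipy 1.17.1 and matplotlib 3.10.9.

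Members and lists were chosen with earlier results of these data known, and the Cpr list, the word TATAAA and the density without Ir40a and Ir41a were added after seeing the data. Named were members with a thresholded summit, the 10 strongest pooled without one, co-receptors, carbon dioxide and sugar receptors, neighbours starting within 500 bp, up to 3 genes a list, and the largest clusters. Exceptions are Ir40a, Ir41a, the own-start peaks and the 2-kb boundary genes, named after their values were seen.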

Additional observations from a re-analysis of the deposited data

How the results depend on the processing

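The count of 10 receptor genes with a thresholded summit became 0 for the gene body alone, 25 within 5 kb, 1 by nearest TSS and 3 with the stronger part of the thresholded list, as each rule admits fewer or more summits by construction. The Or count of 2 became 0, 4, 0 and 1, the Gr count of 5 became 0, 9, 0 and 1, and the Ir count of 3 became 0, 12, 1 and 1. With one replicate's top list in place of the thresholded list, the counts ranged from 8 to 9 for all, 2 to 2 for Or, 2 to 5 for Gr (2 without replicate 3, the cause was not tested) and 2 to 4 for Ir. The share of summits at another gene's start was 100% for the 4 summits of the stronger part and ranged from 63.6 to 90.9% with other windows, and from 75 to 90.0% without a replicate. It has no value for the gene body alone, which held no summit. The 77 genes with a pooled summit became 20 for the body alone, 137 within 5 kb and 27 with the strongest 10000 peaks, and 68 to 96 without a replicate. The density of 10.9 per Mb became 0 in bodies alone, 3.95 with the stronger peaks, 16.9 within 5 kb and 9.87 to 11.8 without a replicate. Counting overlapping peak intervals in place of summits left 10 genes. No paired analysis was possible because there was 1 group only. The depth is unknown, so a weak site below the lists' reach cannot be told from an unbound one.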
